A study of Mus musculus with 9 samples.

Results

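The genes described here were chosen by symbol as those of the protein components of the cytosolic ribosome. The rule takes names of the Rpl and Rps series with a number, the stalk genes Rplp0, Rplp1 and Rplp2, and Rpsa. It leaves out pseudogenes and the Rps6k kinases. Whether the protein of each member, paralogs such as Rpl7l1 included, is part of the ribosome was not checked. Of the 14477 genes of the deposited table, 81 were members, by symbol 44 of the large subunit, 34 of the small subunit and 3 of the stalk. GENCODE M21 annotates 89 symbols that match, and the other 8 (Rpl10l, Rpl24, Rpl32l, Rpl39l, Rpl3l, Rpl6l, Rps12l1 and Rps3a3) were not analysed here. The symbol rule uses names and no measured value, although it was set with earlier results of these data known. RNA was sequenced from cells of adult mice that were sorted on GFP fluorescence from the dentate gyrus, a part of the hippocampus (DG, 5 libraries), or from the subventricular zone beside the lateral ventricle (SVZ, 4 libraries). Mice of both groups were of the strain B6.Cg-Tg(Nes-EGFP)1Yamm, in which regulatory sequence of Nestin drives GFP, and were untreated and in standard housing, with no age given. GFP marks the cells in which that transgene is active, which limits both groups to what the reporter and the sort gate held. Whether each library is a separate animal, or a pool of animals, is not stated in the labels. The p-values therefore cover the spread among these libraries alone, part of which may be technical.

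A ribosome is built from ribosomal RNA, made mainly by RNA polymerase I in the nucleolus, and from ribosomal proteins that are needed in nearly equal numbers. The mRNAs of these proteins start with a cytosine followed by a run of pyrimidines, the 5′ terminal oligopyrimidine (TOP) motif, through which growth signals acting on mTOR and the RNA-binding protein LARP1 set their translation and stability. In adult neurogenesis, quiescent neural stem cells are known for low protein synthesis, which is raised when they are activated.

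Library totals over the genes of the table were 33627909 to 41164044 reads in DG and 31126803 to 32528255 reads in SVZ, so that 1 read was worth 0.024 to 0.03 CPM in DG and 0.031 to 0.032 CPM in SVZ. Marker genes of other cell types differed widely between the groups. All 12 measured endothelial markers were higher in DG, with a summed level of 1202 to 2314 CPM in DG and 11.6 to 69.1 CPM in SVZ, and so were all 12 pericyte and smooth muscle markers, at 5686 to 11667 CPM in DG and 74.9 to 188 CPM in SVZ. Of the markers of proliferation, 14 of 14 were lower in DG, at 2552 to 3419 CPM in DG and 13421 to 16935 CPM in SVZ, and 10 of 10 neuroblast markers were lower, at 7149 to 10665 CPM in DG and 23866 to 28939 CPM in SVZ. Astroglial markers were higher in DG in 10 of 10, at 17087 to 25772 CPM in DG and 1859 to 3560 CPM in SVZ, oligodendrocyte precursor markers in 7 of 7, at 1874 to 3799 CPM in DG and 116 to 327 CPM in SVZ, and fibroblast markers in 8 of 8, at 713 to 1468 CPM in DG and 26.1 to 89.9 CPM in SVZ. Ependymal markers were lower in DG in 9 of 9, at 15 to 37.6 CPM in DG and 134 to 366 CPM in SVZ. No marker of these lists was at 0 in all libraries of a group. Some lists share genes, so their sums are not separate evidence. Pdgfra is in the fibroblast and the oligodendrocyte precursor lists, and Cspg4 is in the latter and the pericyte list. Pdgfra, at 8.75 to 10.15 log2 CPM in DG and 4.27 to 6.27 log2 CPM in SVZ, was the highest fibroblast marker in every library. Of the 6 neural precursor markers, the cell type of the labels, 4 were lower in DG, at 437 to 523 CPM in DG and 715 to 952 CPM in SVZ. Library DG 3 stood apart in mature neuron markers, at 901 CPM against 215 to 277 CPM in the other DG libraries, and in endothelial markers, at 2314 CPM against 1202 to 1573 CPM. Its ependymal markers, at 15 CPM against 23.3 to 37.6 CPM, and its neuroblast markers, at 7149 CPM against 7276 to 10665 CPM, were the lowest of the DG libraries.

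Ribosomal protein genes were lower in DG cells than in SVZ cells nearly throughout. Of the 81 members, 69 were lower in DG, 1 was higher and 11 did not pass the test (limma with Benjamini-Hochberg adjustment over all 14477 genes, adjusted p under 0.05). Over all genes, 33.7% were lower in DG, 32.9% were higher and 66.6% were called in either direction. The median log2 fold change of the members, DG minus SVZ, was -0.64, which is 1.55-fold lower in DG, and the quartiles were -0.70 and -0.53, whereas the median of all genes was -0.07. Fitted values were below 0 for 80 of the 81. The difference was of moderate size, with a range from -1.01 for Rps26 to 0.46 for Rps4l. In these bulk samples, fewer cells of a type and less RNA per cell cannot be told apart. The DG libraries also held more astroglial, vascular, fibroblast and oligodendrocyte precursor transcripts and fewer transcripts of dividing cells, neuroblasts and ependyma, as given above, and the part of these in the result was not tested.

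As a share of all reads, the members took 1.475% in DG 1, 1.857% in DG 2, 1.160% in DG 3, 1.667% in DG 4 and 2.267% in DG 5, against 2.406%, 2.458%, 2.892% and 2.330% in SVZ 1 to SVZ 4. Every DG library was below every SVZ library, and DG 5 came within a narrow margin of SVZ 4. The share of mitochondrially encoded genes also separated the groups, at 0.496% to 0.698% in DG and 0.901% to 1.197% in SVZ, and DG 3, with the lowest share in the members, had the highest of the DG libraries; the part of this in the result was not tested. The mean share was 1.69% ± 0.415 in DG and 2.52% ± 0.253 in SVZ (SD, n = 5 and n = 4). Without DG 5, the highest of its group, the DG mean was 1.54%, and without DG 3, the lowest, it was 1.82%.

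**Figure D1:**
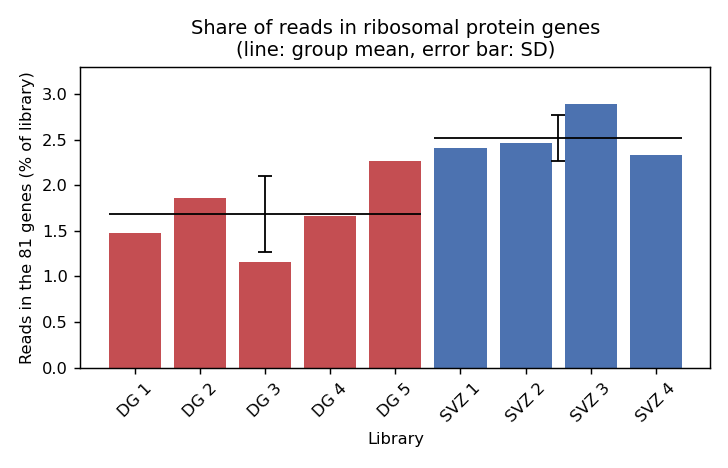
Reads assigned to the 81 ribosomal protein genes as a percent of the library's reads, for the 5 DG libraries (left) and the 4 SVZ libraries (right); lines are group means and error bars SD. All DG libraries lie between 1.160% and 2.267%, below the SVZ libraries at 2.330% to 2.892%.

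The decrease took in both subunits. Of 44 large subunit genes, 38 were lower in DG and 0 were higher, with a median log2 fold change of -0.62. Of 34 small subunit genes, 29 were lower and 1 was higher, with a median of -0.65. Of the 3 stalk genes, 2 were lower, with a median of -0.52. The members lay on 18 autosomes and on X, and the 4 X-linked genes were all lower, with a median of -0.63. For single genes the groups often overlapped through 1 library. Every DG library was below every SVZ library in 30 members, or 37% of them, where 28.3% of all genes showed this, and no member showed the opposite order, which 29.7% of all genes did. In 73 members at least 4 of the 5 DG libraries were below every SVZ library. DG 5 was above the lowest SVZ library in 50 members, and DG 3 was below every SVZ library in 79. The matching shares of all genes were not counted, so the counts by DG library describe the members alone.

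**Figure D2:**
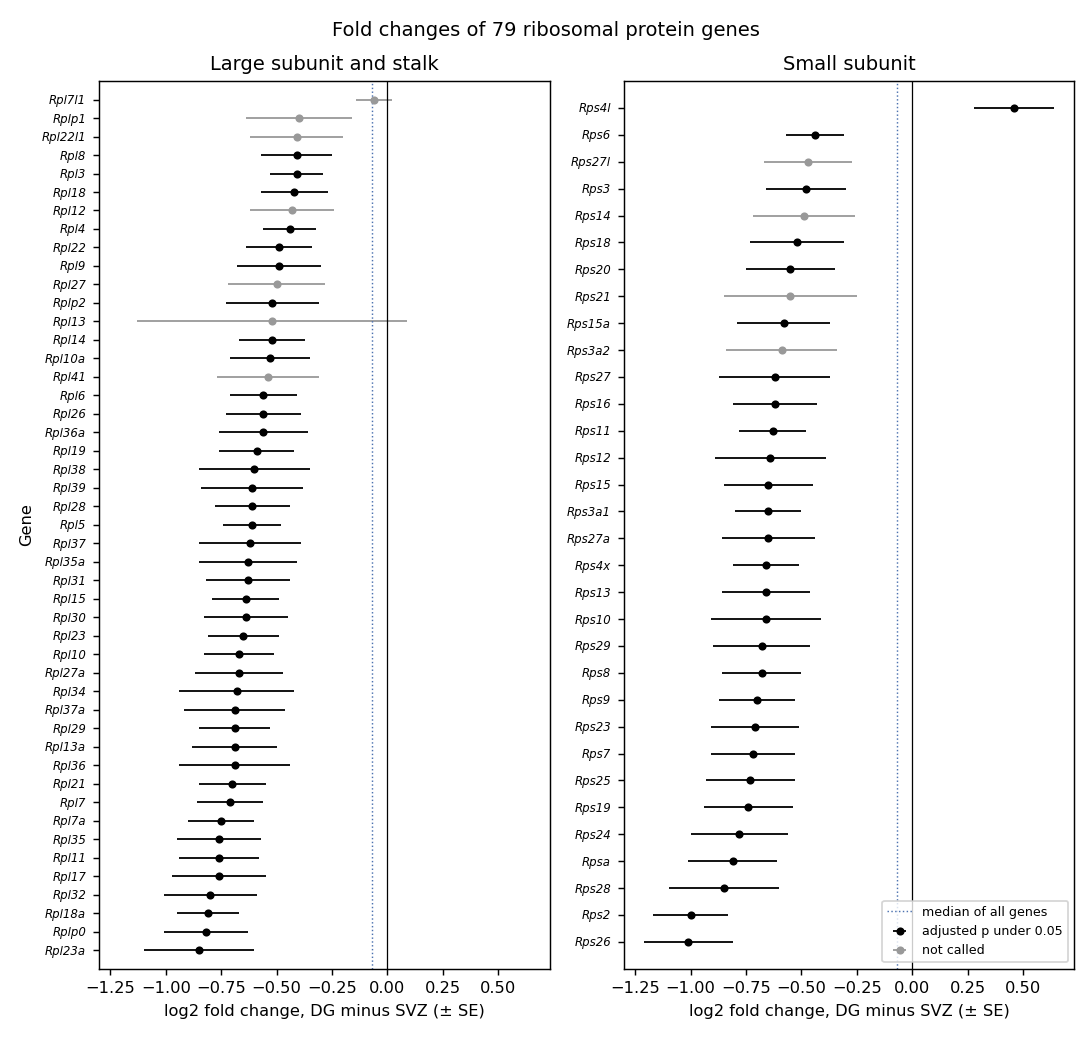
Log2 fold change, DG minus SVZ, with its standard error for 79 of the 81 genes, large subunit and stalk on the left and small subunit on the right. Black points passed the test and grey points did not; most lie between -1.01 and -0.40, left of the dotted line at the median of all genes (-0.07), and Rps4l at 0.46 lies to the right of 0.

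Among the small subunit genes, Rps26 showed the largest fall. Rps26 (ENSMUSG00000025362, chromosome 10, 128624534 to 128626747, minus strand, mm10), whose protein sits where the mRNA leaves the ribosome, stood at 7.02, 7.63, 6.81, 7.42 and 7.95 log2 CPM in DG 1 to DG 5, against 8.32, 8.30, 8.63 and 8.25 log2 CPM in SVZ 1 to SVZ 4. The groups did not overlap, and the log2 fold change was -1.01 (SE 0.20, adjusted p = 0.00115), 2.01-fold lower in DG. Rps2 (chromosome 17, 24718116 to 24721929), whose protein lies at the mRNA entry side, stood at 4.13, 4.11, 4.27, 4.05 and 4.46 log2 CPM in DG, against 4.91, 5.74, 5.19 and 4.98 log2 CPM in SVZ. Its log2 fold change was -1.0 (SE 0.17, adjusted p = 0.000388), and unlike most members it varied little between DG libraries (SD 0.16). Rps2 shared 79.03% of the 50-base windows of its transcript with transcripts of other genes, so its reads are uncertain.

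Rps28, a small protein near the mRNA exit, fell by 0.85 on the log2 scale (SE 0.25, adjusted p = 0.011) and overlapped through DG 5, at 6.61 log2 CPM against an SVZ range of 6.45 to 7.15. Rpsa, known also as the laminin receptor, stood at 8.26, 8.60, 7.62, 8.33 and 8.86 log2 CPM in DG, against 9.04, 9.12, 9.30 and 9.09 log2 CPM in SVZ, a log2 fold change of -0.81 (SE 0.20, adjusted p = 0.00439).

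Rps6, the ribosomal substrate of the S6 kinases, showed one of the smaller falls of the called members. It stood at 7.58, 7.93, 7.44, 7.75 and 8.16 log2 CPM in DG, against 8.16, 8.18, 8.32 and 8.19 log2 CPM in SVZ. DG 5 reached the lowest SVZ library and the other DG libraries were below it (log2 fold change -0.44, SE 0.13, adjusted p = 0.0124). Rps19, the gene first linked to Diamond-Blackfan anaemia in people, stood at 7.44, 8.04, 7.54, 7.96 and 8.46 log2 CPM in DG, against 8.50, 8.58, 9.01 and 8.43 log2 CPM in SVZ, and fell by 0.74 (SE 0.20, adjusted p = 0.00671). Rps27a, which encodes a fusion of ubiquitin with a small subunit protein, fell by 0.65 (SE 0.21, adjusted p = 0.0198).

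Of the large subunit, Rpl23a (chromosome 11, 78180932 to 78183584, minus strand), a protein at the exit of the peptide tunnel, had the largest fitted fall. It stood at 2.88, 3.59, 2.98, 3.39 and 4.09 log2 CPM in DG, against 3.95, 4.04, 4.71 and 4.23 log2 CPM in SVZ (log2 fold change -0.85, SE 0.25, adjusted p = 0.0121). Only DG 5 reached the SVZ range. Rpl23a shared 85.71% of its windows with other transcripts, and 55.36% of its transcript overlaps Tlcd1 on the opposite strand, whose reads cannot be told apart in libraries that do not mark strand. The genes Rpl5 and Rpl11 encode the proteins that join 5S ribosomal RNA and, when assembly fails, bind MDM2. Rpl5 stood at 6.58, 6.97, 6.45, 6.65 and 7.07 log2 CPM in DG, against 7.33, 7.28, 7.39 and 7.40 log2 CPM in SVZ (log2 fold change -0.61, SE 0.13, adjusted p = 0.0015). Rpl11 stood at 7.06, 7.46, 6.63, 7.22 and 7.72 log2 CPM in DG, against 7.89, 7.91, 8.16 and 7.96 log2 CPM in SVZ (-0.76, SE 0.18, adjusted p = 0.00352). Neither gene's groups overlapped. However, Rpl5 shared 93.84% of its windows with other transcripts and Rpl11 62.24%, and 46.6% of the Rpl5 transcript overlaps Fam69a on the opposite strand.

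The stalk genes differed in how clearly they fell. Rplp0, which anchors the stalk, stood at 9.06, 9.19, 8.4, 9.26 and 9.53 log2 CPM in DG, against 10.03, 9.70, 9.98 and 9.94 log2 CPM in SVZ, without overlap (-0.82, SE 0.19, adjusted p = 0.00246). Rplp2, whose protein pairs with that of Rplp1 to recruit elongation factors, fell by 0.52 (SE 0.21, adjusted p = 0.0432). Rplp1 did not pass the test, at 7.35, 7.61, 6.80, 7.55 and 8.13 log2 CPM in DG, against 7.80, 8.0, 8.30 and 7.44 log2 CPM in SVZ (-0.40, SE 0.24, adjusted p = 0.161). The calls of Rplp2 and Rplp1 are not a test of a difference between them, and relative to the mean of all members neither differed beyond the threshold (adjusted p = 0.648 and 0.312).

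Which genes passed the test depended in part on single libraries. The count of members lower in DG was 51, 66, 55, 57 and 77 without DG 1 to DG 5 in turn, and 56, 51, 46 and 69 without SVZ 1 to SVZ 4. Rps29, Rpl10a, Rpl37a and Rps27a lost their calls without SVZ 3 alone (adjusted p = 0.0594, 0.0627, 0.0655 and 0.0582). Rpl35a and Rpl18 lost theirs without DG 1 (0.0557 and 0.0592), SVZ 2 (0.0528 and 0.0562) or SVZ 3 (0.0742 and 0.0808). Rpl36, Rpl36a and Rpl37 lost theirs without DG 1 (0.0693, 0.0689 and 0.0724), DG 3 (0.0562, 0.0588 and 0.0661), SVZ 2 (0.0507, 0.0531 and 0.0521) or SVZ 3 (0.0982, 0.0918 and 0.101). Rplp2 was called only in the presence of DG 1 to DG 4 and SVZ 1 to SVZ 3, and leaving out 1 of these gave adjusted p from 0.0504 to 0.126. Over all 17 alternatives, calls were lost in 6 for Rpl37, in 4 for Rpl18 and in 9 for Rplp2, which is more than are listed here. In the other direction, Rplp1, Rps14, Rpl22l1 and Rps27l were called lower in DG without DG 5 (0.0389, 0.0208, 0.0184 and 0.00534), and Rps14 also without SVZ 4 (0.041).

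Ribosomal proteins whose symbols are outside the rule were also measured. Rack1, a scaffold protein on the small subunit, fell by 0.67 (SE 0.14, adjusted p = 0.00167), and Fau, which encodes a fusion with a small subunit protein, fell by 0.51 (SE 0.19, adjusted p = 0.0369), a call lost without DG 1, DG 3, DG 4, SVZ 1, SVZ 2 or SVZ 3 (adjusted p = 0.0763, 0.0652, 0.0592, 0.0538, 0.0688 and 0.111). Rpl36al, a copy of Rpl36a with 87.74% identity in the coding sequence, did not pass the test (-0.23, SE 0.19, adjusted p = 0.309), whereas Rpl36a on X fell by 0.56 (SE 0.20, adjusted p = 0.0296).

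Per kilobase of the chosen annotated transcript, the members ranged from 1.00 to 10.02 log2 CPM per kb, and 42 of the 81 were among the 1000 genes with the highest mean log2 CPM. Among the highest were Rps14 at 10.02, Rps9 at 9.90, Rpl4 at 9.75 and Rpl32 at 9.59 log2 CPM per kb. These lie closer together than the SD of Rps14 between DG libraries (0.47), and their order was not tested. Pooled within groups, the SD of Rps14 was 0.42, and 0.14 after the members' mean was subtracted in each library. Most of that spread was thus shared by the members, so the SD of 0.47 does not settle the order. The lowest were Rps3a2 at 1.00, Rpl23a at 4.6, Rps2 at 4.65, Rpl22l1 at 5.01 and Rps20 at 5.24 log2 CPM per kb. Of Rps20 the chosen transcript was 3706 bases long, and of Rps3a2 the coding sequence was 99.49% identical to that of Rps3a1, which leaves the count of this single-exon gene uncertain. Of the high genes, Rps9 and Rpl4 were lower in DG without overlap (-0.70, SE 0.17, adjusted p = 0.00405, and -0.44, SE 0.12, adjusted p = 0.00688), Rpl32 was lower with overlap (-0.80, SE 0.21, adjusted p = 0.00646), and Rps14 did not pass the test (-0.49, SE 0.23, adjusted p = 0.0824).

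Across the 81 members, fold changes showed little relation to level or length. Log2 fold change and level per kilobase had a Pearson correlation of -0.07 (Spearman -0.02), and log2 fold change and log2 transcript length one of 0.05 (Spearman -0.06). The points share all 9 libraries and are not independent. A total of 52 members shared over 50% of their 50-base windows with transcripts of other genes, among them pseudogenes. Members with at most 60% of shared windows had a median log2 fold change of -0.63, with 33 of 41 lower in DG, and those above 60% had a median of -0.64, with 36 of 40 lower. Ribosomal protein pseudogenes marked as such by symbol, 32 in all, held reads equal to 0.532% of the members' reads. Genes with other names that share windows with members, such as Gm12918 with Rpl13, are not in this count. Of the 32, 13 were lower in DG and 0 higher, with a median of -0.69. Over all genes, 33.7% were lower and 32.9% higher.

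The members moved together from library to library, and most of their spread was shared. Their mean log2 CPM was 6.898, 7.270, 6.576, 7.103 and 7.574 in DG 1 to DG 5, against 7.635, 7.681, 7.940 and 7.534 in SVZ 1 to SVZ 4. DG 3 was the lowest DG library in 75 of 81 members and DG 5 the highest in 79, whereas over all genes DG 3 was lowest in 24.6% and DG 5 highest in 20%. The full order DG 3, DG 1, DG 4, DG 2, DG 5 held in 69 members. Among SVZ libraries, SVZ 3 was the highest in 71 members, against 20.1% of all genes. The same DG order held for the mean of 16 other TOP mRNAs, at 7.733, 7.928, 7.452, 7.797 and 8.016 log2 CPM in DG 1 to DG 5. DG 3, where the members were lowest, was also the library with the high mature neuron and endothelial markers, the highest mitochondrial share of the DG libraries and the lowest neuroblast and ependymal markers. DG 5 was the one with the largest total of reads. The part of these in the order was not tested.

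This shared movement set the spread of the group. The median SD of a member was 0.41 between DG libraries and 0.18 between SVZ libraries, where the medians of all genes were 0.25 and 0.26. Pooled within groups it was 0.34, against 0.28 for all genes. After the mean of the members was subtracted in each library, the pooled SD fell to 0.10 for the members, where that of all genes, treated the same way, was 0.44. Part of this contrast is built in. The members were centred on their own mean, and their movement was added to the other genes, so that all genes rose from 0.28. Shorter transcripts varied more before subtraction: log2 transcript length and pooled SD had a Pearson correlation of -0.37 and a Spearman correlation of -0.62 over the 81 members. Members of at most 751 bases had a median SD of 0.38 and longer ones of 0.29, and their median log2 fold changes were -0.63 and -0.65.

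**Figure D3:**
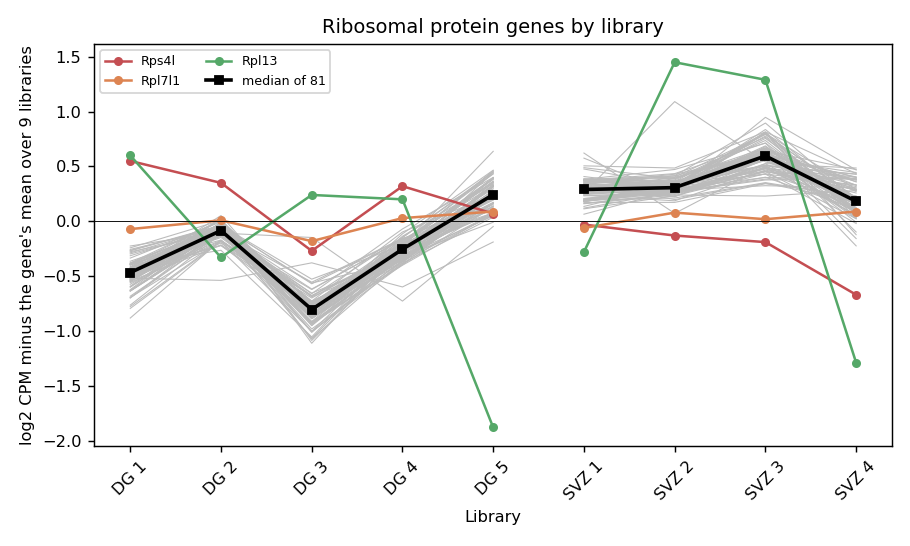
Log2 CPM of each of the 81 genes minus its own mean over the 9 libraries, DG 1 to DG 5 on the left and SVZ 1 to SVZ 4 on the right; grey lines are single genes and the black line their median. Most lines run together, lowest in DG 3 and highest in SVZ 3, and Rps4l, Rpl7l1 and Rpl13 (coloured) depart from them. Some grey lines depart too, among them those of Rps2 and Rps3a2, which are lowest in DG 4.

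Rpl13, which encodes a large subunit protein and was picked out after its values were seen, did not follow the others. It stood at 7.65, 6.72, 7.29, 7.25 and 5.17 log2 CPM in DG, against 6.77, 8.50, 8.34 and 5.76 log2 CPM in SVZ. Its pooled SD of 1.13 was the largest among the members, with Rps21 next at 0.556, and it was lowest in DG 5, the library where the members' mean was highest of the group. Relative to the mean of the members its pooled SD was 1.26. The log2 fold change was -0.52 (SE 0.61, adjusted p = 0.46), and 80.3% of its windows were shared with other transcripts.

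Fitted relative to the mean of the members in each library, a scaling chosen after seeing the data that moves the median of all genes to 0.54, 2 members were above the rest in DG and 1 below. Of all genes, 44.1% were above and 6.73% below on this scale. The members above were Rps4l and Rpl7l1, both marked by their symbols as paralogs of other members, and the one below was Rps26. Rps4l was above by 1.07 (SE 0.25, adjusted p = 0.00216), and it stayed called in all 15 alternatives of this fit, with adjusted p between 1.76e-05 and 0.00948. Rpl7l1 was above by 0.56 (SE 0.19, adjusted p = 0.0223), and this call was lost without a mean-variance trend (adjusted p = 0.0511) and without DG 1, DG 4, SVZ 1 or SVZ 3 (adjusted p = 0.0565, 0.0523, 0.0594 and 0.0783). Rps26 was below by 0.39 on the log2 scale (SE 0.15, adjusted p = 0.0442), and it was called in 6 of 15 alternatives, with adjusted p between 0.00255 and 0.161. The calls lost include those without DG 1, DG 2, DG 4 or any 1 of the 4 SVZ libraries.

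Rps4l (ENSMUSG00000063171, chromosome 6, 148354656 to 148355598, plus strand) is a single-exon gene whose coding sequence is 79.59% identical to that of the X-linked Rps4x, and 17.97% of its windows were shared with other transcripts. It stood at 5.86, 5.66, 5.04, 5.63 and 5.38 log2 CPM in DG, against 5.28, 5.18, 5.12 and 4.64 log2 CPM in SVZ. DG 3 was below 3 of the 4 SVZ libraries and the other DG libraries were above all of them. The log2 fold change was 0.46 (SE 0.18, adjusted p = 0.0432), 1.37-fold higher in DG. That call was lost without DG 1 (adjusted p = 0.1), DG 2 (0.0835), DG 4 (0.0853), SVZ 2 (0.0541), SVZ 3 (0.067) or SVZ 4 (0.126). It was also lost with upper quartile scaling (0.0676), without the trend (0.0602) and with the replicate number as a term (0.052). The call strengthened without DG 3 (0.00894). The direction was the same in each. Rps4x, its counterpart with introns (chromosome X, 102184941 to 102189394), stood at 7.84, 8.24, 7.52, 7.91 and 8.33 log2 CPM in DG, against 8.64, 8.56, 8.66 and 8.65 log2 CPM in SVZ. It was lower in DG without overlap (-0.66, SE 0.15, adjusted p = 0.00213).

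Rpl7l1 (ENSMUSG00000063888, chromosome 17, 46773907 to 46782672, minus strand), 52.98% identical to Rpl7 over the aligned coding sequence, hardly varied. It stood at 7.91, 7.99, 7.80, 8.01 and 8.07 log2 CPM in DG, against 7.92, 8.06, 8.0 and 8.07 log2 CPM in SVZ, with a pooled SD of 0.091. The groups overlapped and no difference was called (-0.06, SE 0.08, adjusted p = 0.554). Rpl7, whose protein is part of the large subunit, stood at 8.67, 9.00, 8.24, 8.67 and 9.09 log2 CPM in DG, against 9.42, 9.39, 9.56 and 9.43 log2 CPM in SVZ, and was lower in DG without overlap (-0.71, SE 0.15, adjusted p = 0.00154).

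The other paralog pairs differed less. Rpl22l1, which takes the place of Rpl22 in mice that lack it and is 66.93% identical in coding sequence, stood at 3.63, 4.08, 3.49, 4.08 and 4.55 log2 CPM in DG, against 4.33, 4.48, 4.58 and 4.13 log2 CPM in SVZ (-0.41, SE 0.21, adjusted p = 0.0995). Rpl22 was lower in DG (-0.49, SE 0.15, adjusted p = 0.0157). Rps27l, 76.19% identical to Rps27, stood at 5.33, 5.79, 5.19, 5.73 and 6.31 log2 CPM in DG, against 6.18, 6.13, 6.33 and 5.90 log2 CPM in SVZ (-0.47, SE 0.20, adjusted p = 0.0614). Rps27 fell by 0.62 (SE 0.25, adjusted p = 0.0489), and 98.65% of its windows were shared with other transcripts, so its reads are uncertain. The call of Rps27 was lost without any 1 of DG 1 to DG 4 or SVZ 1 to SVZ 3 (adjusted p = 0.0529 to 0.147). In all, it was lost in 9 of 17 alternatives. Relative to the members' mean neither Rpl22l1 (0.20, adjusted p = 0.459) nor Rps27l (0.15, adjusted p = 0.524) passed the threshold. Without the paralogs, 69 of the other 77 members were lower in DG and 0 were higher.

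**Figure D4:**
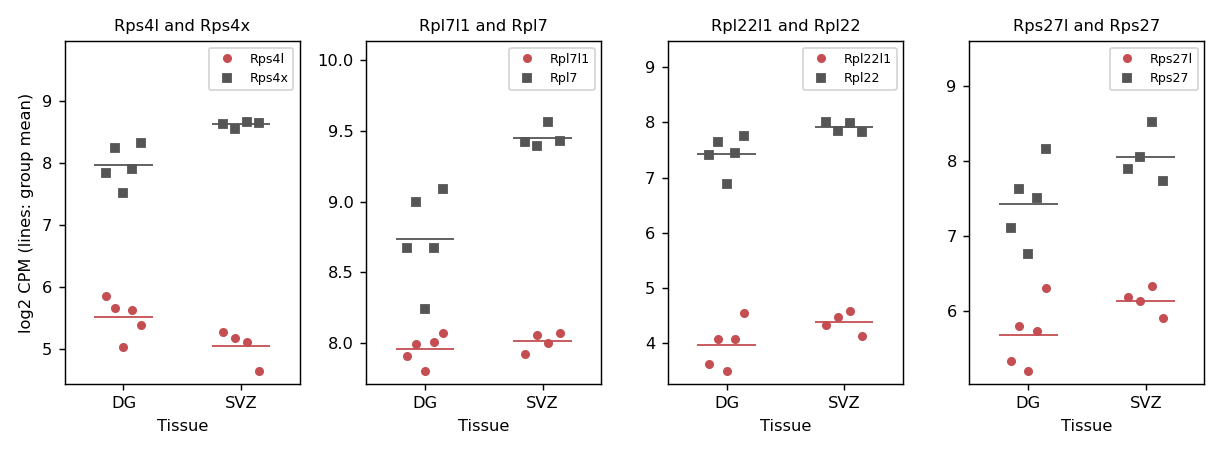
Log2 CPM by library for 4 paralogs (red circles) and the genes they resemble (grey squares), DG left of SVZ in each panel; lines are group means. Rps4l has a higher mean in DG (5.51) than in SVZ (5.06), Rpl7l1 lies near 8 in both groups, and the 4 partner genes are lower in DG.

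Starts of these genes are shown because the members moved together and because TOP mRNAs are defined by their first bases. RefSeq promoters (build GRCm38.p6) were matched by symbol for 59 of the 81 members and for 10834 of the tested genes. A run of 8 or more C or T on the transcribed strand within 50 bases of an annotated start was present in 50 of 59 members (84.75%), against 37.44% of all these genes. On the other strand the same run was present in 14 members (23.73%), against 40.43%. The letters CGGAAG, the core that ETS-family factors recognise, occurred on either strand of the 300-base promoter in 40 members (67.8%), against 33.28% of genes, and TATAA in 17 (28.81%), against 15.93%. A match is a description of the letters and not of a bound factor. The windows below hold 30 bases before the annotated start and 30 from it on, on the strand of the gene, with the longest run of C and T in capitals.
Rps6, chr4:86857338-86857397, minus strand: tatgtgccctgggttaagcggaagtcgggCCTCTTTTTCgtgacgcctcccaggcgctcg
Rps26, chr10:128626477-128626536, minus strand: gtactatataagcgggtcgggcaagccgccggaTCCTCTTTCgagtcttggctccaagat
Rps9, chr7:3704011-3704070, plus strand: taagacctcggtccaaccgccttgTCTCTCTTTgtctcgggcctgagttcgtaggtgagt
Rpl4, chr9:64173357-64173416, plus strand: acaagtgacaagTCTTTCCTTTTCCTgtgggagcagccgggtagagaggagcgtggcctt
Rpl7a, chr2:26910777-26910836, plus strand: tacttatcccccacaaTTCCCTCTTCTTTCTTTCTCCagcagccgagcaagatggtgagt
Rps27, chr3:90213619-90213678, minus strand: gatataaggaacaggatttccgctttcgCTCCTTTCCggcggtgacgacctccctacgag
Rpl22l1, chr3:28805478-28805537, plus strand: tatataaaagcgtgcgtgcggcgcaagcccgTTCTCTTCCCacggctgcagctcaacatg
Rpl7l1, chr17:46782627-46782686, minus strand: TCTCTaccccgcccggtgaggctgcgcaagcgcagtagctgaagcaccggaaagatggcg
Rps4x, chrX:102189362-102189421, minus strand: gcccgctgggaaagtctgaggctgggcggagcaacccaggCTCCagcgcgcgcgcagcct

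In these windows the run starts within 2 bases of the annotated start in Rps6, Rps27 and Rpl22l1 and covers it in Rps9 and Rpl7a. Rps26, with the largest fall, and Rps6, with one of the smaller ones, have runs of 9 and 10 bases. Rpl7l1, which did not fall, has a longest run of 5 bases in the window, and Rps4x, which fell, one of 4 bases. The length of the run in this window thus did not sort the few members shown by their fold change. Run length and fold change were not compared over all members. The longest run may also lie away from the first base of the mRNA, so a relation of fold change to the TOP motif was not tested. Rps4l had no entry.

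Genes of the same pathway were taken from lists of known functions, which differed in how many of their genes were called. Of 16 other TOP mRNAs of the translation machinery, 15 were lower and 0 higher, with a median log2 fold change of -0.65. Hnrnpa1, an RNA-binding protein, stood at 8.57, 8.81, 8.35, 8.75 and 8.91 log2 CPM in DG, against 9.87, 9.90, 9.90 and 9.98 log2 CPM in SVZ (-1.24, SE 0.11, adjusted p = 2.61e-06). Pabpc1, the poly(A)-binding protein, fell by 0.93 (SE 0.12, adjusted p = 4.83e-05), and Nap1l1, a histone chaperone, by 0.62 (SE 0.08, adjusted p = 4.79e-05). The member not called was Eef1d, a subunit of the elongation factor that exchanges nucleotides (0.07, SE 0.13, adjusted p = 0.628).

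Among genes of ribosome production, those called were lower in DG with 1 exception. Of 14 genes of RNA polymerase I and its factors, 7 were lower in DG and 0 higher (median -0.38), among them Rrn3, which brings the polymerase to the rDNA promoter (-0.53, SE 0.08, adjusted p = 9.86e-05), Taf1d (-0.89) and Ubtf, the upstream binding factor (-0.58). Of 71 measured genes of ribosomal RNA processing and assembly, 39 were lower and 1 higher (median -0.36). Dkc1, the pseudouridine synthase of box H/ACA particles, fell by 0.66 (SE 0.09, adjusted p = 0.000102), Bms1, a GTPase of small subunit assembly, by 0.74 and Nop58, of box C/D particles, by 0.77. Sbds, which acts in the release of eIF6 from the large subunit, was the one higher. It stood at 7.31, 7.28, 7.27, 7.49 and 7.37 log2 CPM in DG, against 6.16, 6.43, 6.44 and 6.56 log2 CPM in SVZ (0.95, SE 0.10, adjusted p = 8.4e-06), with no overlap.

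Of 15 regulators, 9 were lower in DG and 0 higher (median -0.49). Mycl, a MYC-family transcription factor, stood at 5.17, 5.72, 4.99, 4.89 and 5.40 log2 CPM in DG, against 7.0, 6.84, 6.76 and 7.14 log2 CPM in SVZ, 3.25-fold lower in DG (-1.70, SE 0.17, adjusted p = 5.27e-06). Ybx1, an mRNA-binding protein, fell by 1.24 (SE 0.18, adjusted p = 0.000107) and Trp53, the gene of p53, by 0.49 (SE 0.08, adjusted p = 0.000201). Of the other MYC-family genes, Mycn was lower (-0.74, adjusted p = 0.00109) and Myc was not called (-0.02, adjusted p = 0.918). Mtor and Rptor were also among the 6 regulators not called (adjusted p = 0.0986 and 0.427). Beside these counts, 33.7% of all genes were lower in DG and 32.9% were higher.

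**Figure D5:**
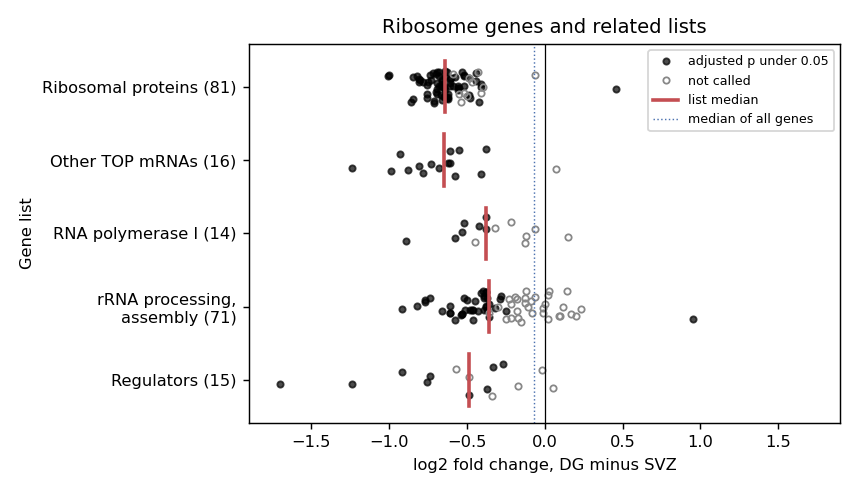
Log2 fold change, DG minus SVZ, of each gene of 5 lists; filled points passed the test, red bars are list medians and the dotted line is the median of all genes (-0.07). The medians of the ribosomal proteins (-0.64) and of the other TOP mRNAs (-0.65) lie furthest to the left, and Rps4l (0.46) and Sbds (0.95) are the called genes right of 0.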

How the data were processed

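Bulk RNA-seq libraries from sorted cells were analysed, 5 from DG and 4 from SVZ. Per the labels' protocols, poly-dT priming with template switching gave cDNA that was amplified and sheared, and neither molecular identifiers nor strand marking is mentioned, so reads of overlapping genes on opposite strands cannot be told apart. Per the submitters' processing notes, STAR, edgeR and the mm10 build were used; the sources used here name neither the gene counter nor the annotation, and no versions. The deposited values are log2 CPM to which 1 read, scaled by library size, was added as prior; this was inferred from the values, which the formula gave back within 5.33e-14. Reads recovered from them were whole for 100% of values (tolerance 0.001). The log2 scale with a prior count understates changes of genes with few reads.

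The planned test for log2 values was used: limma 3.58.1 under R 4.3.3, using a mean-variance trend over all 14477 genes, with tissue as the only term, DG minus SVZ, two-sided, Benjamini-Hochberg adjusted p under 0.05. All adjusted p-values are from limma fits. Symbols, coordinates (1-based) and transcripts came from GENCODE M21 (14428 of 14477 identifiers matched). The length was that of the shortest transcript of the best APPRIS rank. Shared windows are stretches of 50 bases found in a transcript of another gene.

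The members and the lists were chosen with earlier results of these data known. Named members were those with the largest called changes, paralogs and partners, stalk genes and 5 others of known role, the highest and lowest levels per kilobase, members with an outlying library and members whose call changes under an alternative; list genes were up to 3 per direction by adjusted p. Rpl13 was picked after its values were seen. Some members that the rule takes are not reported by name here, and they remain in all counts and medians. Alternatives were TMM, upper quartile and member-free totals, a prior count of 5 reads, a filter at a mean of 3 log2 CPM, no trend, array weights, the replicate number as a term and leaving out each library.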

Additional observations from a re-analysis of the deposited data

Results flagged for a closer look

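In 162 groups (81 genes in each tissue), 3 SVZ values stood far from the other libraries of their group by Dixon's criterion, which chance meets in about 1 group in 20. Rpl4 was 10.43 log2 CPM in SVZ 1, against 10.65 to 10.69 in the other SVZ libraries. Rpl35, of which 68.29% of the transcript overlaps Wdr38 on the opposite strand, was 7.66 log2 CPM in SVZ 3, against 7.15 to 7.17 in the others. Rpl13a, of which 59.31% overlaps Gm45713 on the same strand, was 9.37 log2 CPM in SVZ 3, against 9.03 to 9.09. SVZ 3 was the highest SVZ library in 71 of the 81 members. Each of the 3 genes was lower in DG without overlap between the groups, with log2 fold changes of -0.44 for Rpl4, -0.76 for Rpl35 and -0.69 for Rpl13a (limma adjusted p = 0.00688, 0.00364 and 0.00688).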

How the results depend on the processing

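The number of members lower in DG was 69 as reported and ranged over the alternatives from 46 (without SVZ 3) to 78 (array weights), being 54 with TMM scaling, 70 with upper quartile scaling, 70 with a prior count of 5 reads, 56 without the trend and, without 1 library, 46 to 77. A total of 46 members were lower in DG in the reported fit and in all 17 alternatives other than the relative scale and the removal of the paralogs. The median log2 fold change was -0.58 with TMM scaling, where the median of all genes was -0.02, and -0.51 to -0.78 without 1 library. The number of members higher in DG, 1 as reported, was 0 with upper quartile scaling, without the trend, with the replicate block and without the paralogs, and 0 to 1 without 1 library. Relative to the mean of the members, which sets their average difference to 0, there were 2 above and 1 below, and the median was -0.02. On that scale the members above were 1 without the trend, 3 with array weights and 1 to 2 without 1 library. Those below were 0 without the trend, 0 with the block, 4 with array weights and 0 to 1 without 1 library. Over all genes, the filter on low values left 2938 higher in DG, since fewer genes were tested. Of the pathway lists, RNA polymerase I gained 1 gene higher in DG with array weights, and the lower count of the 3 ribosomal proteins outside the rule was 1 with TMM scaling and without the trend, and 1 to 2 without 1 library. The labels do not say whether the shared replicate numbers pair the libraries. Deviations from the group means correlated at -0.0453, -0.173, 0.00727 and -0.107 in same-numbered libraries, and at -0.159 to 0.233 in the others. Deviations from means of 5 and 4 libraries are not independent, so these values cannot settle whether the libraries are paired. With the number as a replicate block, on 4 libraries of each tissue, 75 members were lower. Outside the relative scale, no called direction was reversed. On the relative scale some members changed sign, among them Rpl7l1 from -0.06 to 0.56 and Rps6 from -0.44 to 0.17. Of the values of the 39 named members under the alternatives, 586 stayed on their side of the threshold, 60 lost a call and 16 gained one. The cause of these changes was not tested. With 5 and 4 libraries, the shared spread of the members between DG libraries limits which small differences of single members can be called.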
